A study of Homo sapiens with 4 samples.

Results

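Accessible chromatin was described around 10 genes that encode secreted inflammatory factors of fibroblasts, namely the chemokines CXCL1, CXCL2, CXCL3, CXCL5, CXCL6, CXCL8, CXCL12 and CCL2 and the cytokines IL6 and LIF. A region belonged to the set when the summit of an ATAC-seq peak lay inside one of these genes or within 50 kb of one of its transcription start sites (TSS) in GENCODE release 44. The rule found 66 of the 130157 regions of the series, of which 45 reached a −log10 q of 10 in at least 1 peak list, out of 71450 such regions in all. The farthest summit included lay 47.98 kb from a TSS and the nearest one left out 50.02 kb. ATAC-seq marks open DNA by the places where a transposase can cut. The cells were BJ human dermal fibroblasts. The study had introduced into them a lentiviral doxycycline-dependent transactivator (rtTA) and a retroviral construct under the TRE3G promoter. The CTR cells expressed KLF4 alone, and the p63 cells expressed Myc-tagged ΔNp63α joined to KLF4 by a self-cleaving peptide, so KLF4 was present in both groups. Doxycycline was given for 72 h at 1 µg/ml in both. Each of the 2 groups had 2 samples, which were separate inductions of the same polyclonal lines, but 1 peak list per group was deposited. No value carries a spread between replicates, and every difference below is a difference between 2 lists, described without a test.

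CXCL1, CXCL2, CXCL3, CXCL5, CXCL6 and CXCL8 are ligands of the receptor CXCR2, which draws neutrophils into tissue, and their genes sit side by side on chromosome 4. CXCL12 signals through CXCR4 and retains stem and immune cells near stromal fibroblasts, and CCL2 recruits monocytes through CCR2. IL6 and LIF are cytokines that share the receptor subunit IL6ST and signal through STAT3. Many of these genes are induced by NF-κB after IL-1 or TNF, together with C/EBP and AP-1 factors. Wounded or activated dermal fibroblasts are a known source of several of these factors.

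Most of the promoters share an NF-κB sequence, shown here because CXCL1, CXCL2, CXCL3, CXCL5 and CXCL6 hold it in the same letters. Of the 10 genes, 8 had a promoter in the RefSeq table (GRCh38.p14), and CCL2 and LIF did not. The NF-κB pattern, searched on both strands, has 10 letters: GGG, a purine, any base, A or T, a pair of pyrimidines and CC. It occurred in the 250 bases before the start site in 6 of the 8, compared with 5.21% of 35116 RefSeq promoters. The match ended 70 bases before the RefSeq start of CXCL1 and CXCL3, 69 before CXCL2, 82 before CXCL5, 81 before CXCL6 and 64 before IL6. The promoter regions described below use GENCODE starts instead. At CXCL3 and IL6 the outermost GENCODE start lies farther upstream, so these 2 matches fall inside the annotated gene. CXCL8 and CXCL12 had no match to these exact letters. The CXCL8 promoter holds TGGAATTTCC, which differs from the pattern only in its first letter. Of the other patterns, the C/EBP motif occurred in 2 of the 8 promoters (CXCL2 and IL6), beside 9.05% of all, the AP-1 motif in 1 (CXCL8), beside 4.2%, and the KLF motif in 5, beside 28.8%. The following lines give the sites on the coding strand with 10 bases on either side, and capitals mark the NF-κB match.
CXCL1 (chr4:73869304-73869333, plus strand): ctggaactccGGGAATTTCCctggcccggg
CXCL2 (chr4:74099254-74099283, minus strand): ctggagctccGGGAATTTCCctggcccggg
CXCL3 (chr4:74038749-74038778, minus strand): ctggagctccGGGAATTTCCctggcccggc
CXCL5 (chr4:73998749-73998778, minus strand): catgagttcaGGGAATTTCCccagcatccc
CXCL6 (chr4:73836578-73836607, plus strand): cctgagttcaGGGAATTTCCccagcatccc
IL6 (chr7:22727117-22727146, plus strand): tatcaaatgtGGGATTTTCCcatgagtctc

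The 5 CXCR2 ligand promoters with a match carried the same 10 letters and fell into a pair of sequence families. Over the 250 bases, CXCL5 and CXCL6 were 85.3% identical, CXCL1 and CXCL3 81.4%, CXCL2 and CXCL3 73.3% and CXCL1 and CXCL2 67.9%, whereas CXCL1 and CXCL5 were 51.1% identical. Despite this likeness, 85.0% to 93.0% of the 24-base words of the RefSeq promoter windows of these 5 genes occurred once in hg38, and no word occurred more than 2 times. Around the summits of the promoter peaks the share was lower at CXCL2 (56.4%) and CXCL3 (79.5%) and higher at CXCL1 and CXCL6 (97.4% each). Again no word had more than 2 copies. Reads that fall on the repeated words could belong to either copy. The upstream sequences of CXCL1 and CXCL2 are printed at greater length because these related promoters differed in accessibility, as described next, with the NF-κB match in capitals.
CXCL1 (chr4:73869273-73869392, plus strand): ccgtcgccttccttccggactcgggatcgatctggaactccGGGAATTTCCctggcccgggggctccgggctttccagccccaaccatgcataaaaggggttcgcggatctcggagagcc
CXCL2 (chr4:74099197-74099315, minus strand): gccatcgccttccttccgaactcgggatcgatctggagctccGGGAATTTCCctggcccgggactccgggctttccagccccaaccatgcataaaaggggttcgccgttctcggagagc

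The promoters of the 10 genes spanned the whole range from open to undetected, and most had nearly the same height in both lists. The height is the summit pileup, the number of overlapping reads or fragments at the summit, which was solved from the fold enrichment and the −log10 p of each peak. The median peak with a −log10 q of at least 10 had a pileup of 33 in both lists. A promoter region was the one with its summit nearest to a TSS, within 1 kb. At the threshold, 6 of the 10 genes had an open promoter in each list (CXCL2, CXCL3, CXCL8, CXCL12, CCL2 and IL6). Over all protein-coding genes the shares were 64.3% and 64.8%.

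CXCL2 and IL6 had the highest promoter pileups. At CXCL2, whose summit lay 56 bp before the TSS, the CTR pileup was 54 (95% Poisson interval 40.6 to 70.5) and the p63 pileup 57 (43.2 to 73.9). At IL6 it was 53 (39.7 to 69.3) and 67 (51.9 to 85.1), and the fold enrichment over the local background was 6.78 and 7.96. The IL6 summit lay 267 bp before a TSS, in introns of IL6, IL6-AS1 and STEAP1B, genes whose transcripts overlap there. CCL2 had 46 and 41 at a summit 36 bp before its TSS. The ratios of p63 to CTR pileup were 1.06 (0.715 to 1.56), 1.26 (0.869 to 1.85) and 0.891 (0.571 to 1.39), so each interval included 1. These exact binomial intervals cover counting error only.

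CXCL3 was the promoter with the largest difference. Its CTR pileup was 46 (33.7 to 61.4) and its p63 pileup 30 (20.2 to 42.8), a ratio of 0.652 with an interval of 0.397 to 1.06. The fold enrichment was 13.0 and 10.6. The interval still reached 1, and the peak remained above the threshold in both lists.

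The remaining promoters had lower pileups in the CTR list. CXCL12 had 26 and 22 at the summit nearest its outermost TSS. A second region, with its summit in an intron 532 bp from another annotated TSS, covered the RefSeq start of the gene. It had 24 CTR and 35 p63 reads, a ratio of 1.46 (0.843 to 2.56), so the 2 CXCL12 regions differed in direction and both intervals included 1. CXCL8 had 17 and 20, close to the lowest pileup of 15 that any peak at the threshold had. The order by fold enrichment was different, because the local background differed between promoters. CXCL8 stood 8.26-fold and 9.86-fold over a background of 1.18 and 1.13 reads. This was above IL6 (6.78 and 7.96 over 6.97 and 7.54 reads) and CCL2 (5.6 and 5.52 over 7.39 and 6.61 reads), and below CXCL2 and CXCL3. LIF had 21 and 18, CXCL6 had 12 and 13 and CXCL1 had 11 and 10, all under the threshold in both lists. At CXCL5 no peak of either list lay within 1 kb of the TSS, and the nearest summit was 19032 bp away. CXCL1 and CXCL6 were thus low in both lists, although their promoters hold the same 10-letter match as CXCL2 and CXCL3. Ordered by pileup within the CTR list, only CCL2 and CXCL12 differed between neighbours beyond counting error (ratio 1.77, 1.07 to 2.98). In the p63 list no neighbours did.

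**Figure D1:**
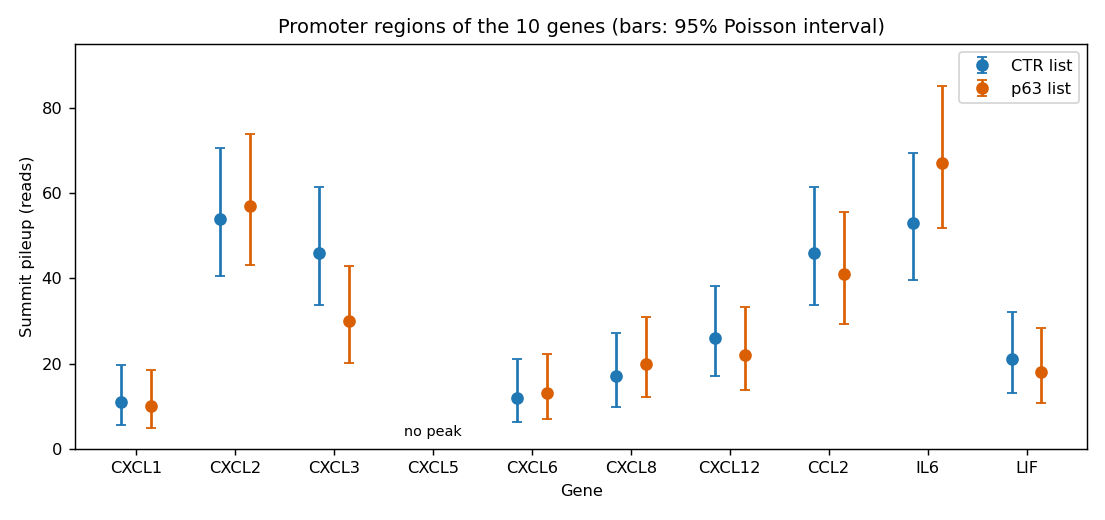
Summit pileup in reads (vertical axis) of the promoter region of each of the 10 genes (horizontal axis) in the CTR list (blue) and the p63 list (orange), with 95% Poisson intervals that cover counting error only. CXCL2 and IL6 are highest, CXCL3 shows the widest gap at 46 against 30 reads, and CXCL5 has no promoter peak. For CXCL12 the region nearest the outermost TSS is drawn, not the one that covers the RefSeq start.

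Across the 66 regions, 31 were at the threshold in both lists, 9 in the CTR list alone (CTR-only), 5 in the p63 list alone (p63-only), and 21 were under it in both. The 9 CTR-only regions were 22.5% of the 40 regions at the threshold in the CTR list (Wilson interval 12.3 to 37.5%), beside 16.5% over all regions. The 5 p63-only regions were 13.9% of 36 (6.08 to 28.7%), beside 24% over all regions. The balance depended on the threshold. At a −log10 q of 20 the set had 1 CTR-only region of 17 (5.88%) and 9 p63-only regions of 25 (36.0%), beside 15.4% and 24.6% over all regions at that threshold. With every deposited peak counted it had 7 of 58 (12.1%) and 8 of 59 (13.6%), beside 21.5% and 27.4%. All 9 CTR-only regions had a −log10 q under 20 in the CTR list. The lowest value of a peak at the threshold was 10.3 and the highest value under it was 9.54. None of the 14 list-only regions lay within 1 kb of a TSS of the 10 genes, and 12 of them were intergenic.

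Heights were compared for regions with a peak in both lists, though the regions were still chosen by the threshold. Of the 45 regions, 41 had a peak in both lists, and 19 were higher and 22 lower in the p63 list, with a median ratio of 0.954. These 41 include 7 CTR-only regions, all with ratios under 1, and 3 p63-only regions, all above 1, which their definition favours. Over all 62127 paired regions of the series, chosen in the same way, the median ratio was also 1. The divisor of all ratios, the unscaled median over regions at the threshold in both lists, was 1 as well. A ratio of at least 1.5 was reached by 3 regions upward and 4 downward, beside 12.8% and 10.4% of the 62127 paired regions of the series. This balance turned with the scaling: after division by the ratio of the background coverages, 4 regions were called higher and 1 lower, beside 14.5% and 8.21% of all paired regions. At a fold of 2, 2 were higher and 0 lower. The counting interval excluded 1 in 3 regions, all higher in the p63 list and none lower, beside 7.64% above and 2.85% below over all paired regions. They lay near CCL2 (1 region) and LIF (2 regions).

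**Figure D2:**
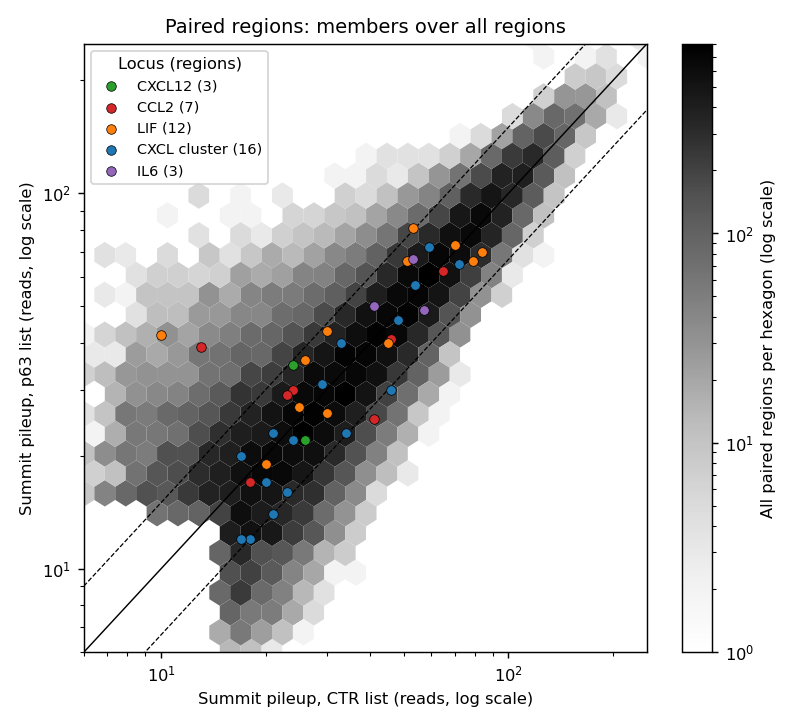
Summit pileup in the CTR list (horizontal) and the p63 list (vertical) of the 41 paired regions, in reads on log axes, coloured by locus over the density of all 62127 paired regions in grey (50 regions above 250 reads lie outside the axes). The solid line marks equal heights and the dashed lines a ratio of 1.5, and the points far above the line are 1 LIF region (10 and 42 reads) and 1 CCL2 region (13 and 39 reads).

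The cluster on chromosome 4 runs from CXCL8 through CXCL6, CXCL1, CXCL5 and CXCL3 to CXCL2 and held 27 regions, of which 18 were at the threshold. All 18 were at the threshold in the CTR list and 11 of them also in the p63 list, so 7 were CTR-only (38.9%, 20.3 to 61.4%) and 0 of 11 were p63-only (0 to 25.9%). On chromosome 4 as a whole, CTR-only regions made up 22.6% and p63-only regions 24.3%. Outside the cluster the other 4 genes, on other chromosomes, had 2 CTR-only regions of 22 and 5 p63-only regions of 25. The Wilson intervals of these shares, 2.53 to 27.8% and 8.86 to 39.1%, include the 16.5% and 24% over all regions. Within the cluster the CTR-only regions were weak, with CTR pileups of 16 to 34 (median 18) and −log10 q of 10.8 to 17.4. At a −log10 q of 20 none of these 7 was left, and 1 region shared at 10 became CTR-only and another p63-only. Each was 1 of 7 (14.3%), beside 15.4% and 24.6% over all regions at that threshold. At 15 the cluster had 2 CTR-only regions and 1 p63-only region, where the shares over all regions were 15.3% and 24.3%. With every deposited peak counted it had 4 of 24 (16.7%) and 3 of 23 (13.0%), beside 21.5% and 27.4% over all regions.

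Along the cluster the CTR-only regions fell near CXCL8, CXCL6, CXCL1 and CXCL5. Upstream of CXCL8 the region at −32.5 kb had 34 CTR and 23 p63 reads, and the one at −10.8 kb had 20 and 17. Upstream of CXCL6 the region at −19.6 kb had 21 and 14. Around CXCL1 the region at −9.6 kb had 18 and 12 and the one at 14.1 kb downstream had 17 and 12. For these 5 regions the ratios ran from 0.667 to 0.85, and every interval included 1.

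The other 2 CTR-only regions of the cluster had no peak at all in the p63 list, beside 3.3% of regions at the threshold in the CTR list over all chromosomes and 5% on chromosome 4. One lay 22.8 kb downstream of the CXCL1 start (chr4:73891946-73892375) with 16 reads, 7.80-fold enriched, at a −log10 q of 11.5. The other lay 19.6 kb downstream of the CXCL5 start (chr4:73978944-73979300), 2944 bp from the TSS of PF4, which encodes a platelet chemokine, with 17 reads, 8.26-fold enriched, at a −log10 q of 12.6. Both were intergenic and close to the lowest height that reached the threshold. The lowest pileup among all deposited peaks of the p63 list was 6, so a weaker signal there could be present and unlisted.

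The 11 shared regions of the cluster were higher, with CTR pileups of 17 to 72 and p63 pileups of 16 to 72, and their ratios ran from 0.652 at the CXCL3 promoter to 1.22. The highest ratio belonged to the region 10.1 kb upstream of CXCL2, with 59 and 72 reads, which lay 4871 bp from the TSS of MTHFD2L, a gene of mitochondrial folate metabolism. The 5 regions at the threshold near CXCL2 were all shared, whereas the 3 regions at the threshold within 50 kb of CXCL6 were all CTR-only, of which those at −9.6 and 14.1 kb from CXCL1 are nearer to CXCL1. Over the 16 paired regions of the cluster, 6 were higher and 10 lower in the p63 list, the median ratio was 0.91, and 0 were called higher and 3 lower at 1.5-fold. The 3 lower ratios (0.652, 0.667 and 0.667) sat at the limit, and under background scaling 0 of the 16 were called in either direction. The 16 include 5 CTR-only regions, which lay under the threshold in the p63 list by definition, so their lower ratios partly follow from that choice. Among the 11 shared regions alone the median ratio was 1.06. On chromosome 4 the median ratio over paired regions, shared and list-only, was 0.968.

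**Figure D3:**
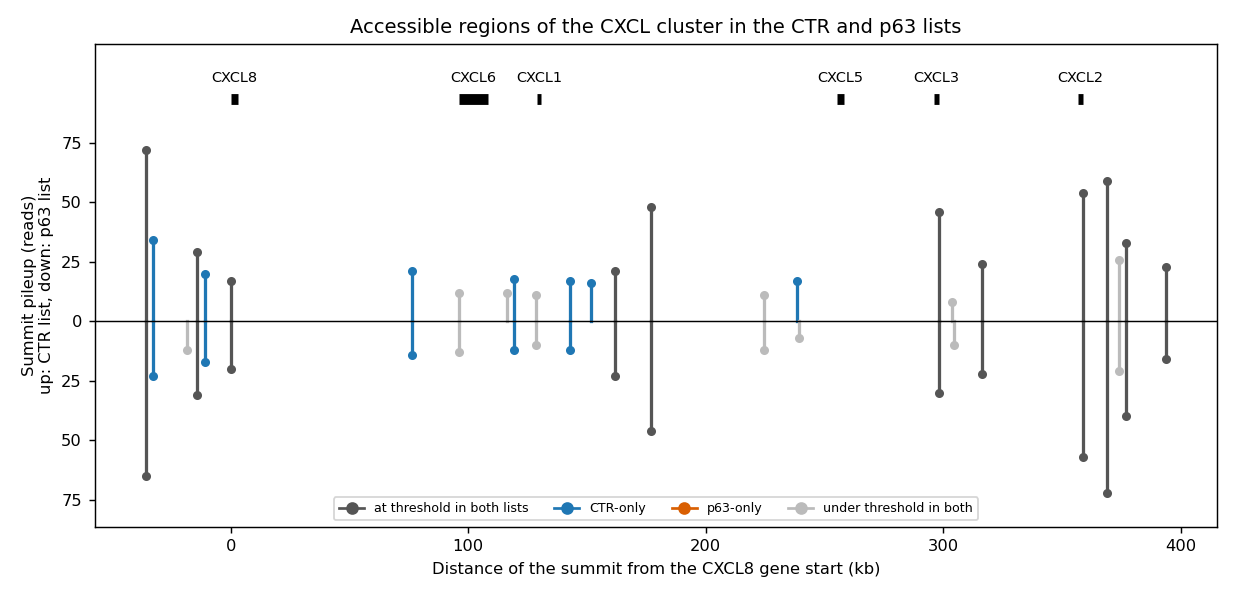
Map of the 27 regions of the CXCL cluster by distance in kb from the CXCL8 gene start (horizontal), with the summit pileup in reads drawn upward for the CTR list and downward for the p63 list. Black bars mark the 6 genes; the 7 CTR-only regions in blue are short stems that run from upstream of CXCL8 to near CXCL5, and the tallest grey stems reach 72 reads in each direction.

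CCL2, on chromosome 17, had 12 regions, of which 5 were shared, 1 was CTR-only, 2 were p63-only and 4 were weak. Of the 7 at the threshold in the p63 list, 28.6% were p63-only (Wilson interval 8.22 to 64.1%), beside 22.2% on chromosome 17. Of the 6 in the CTR list, 16.7% were CTR-only (3.01 to 56.4%), beside 12.8%. The region at −36.3 kb (chr17:34218618-34219328) had 13 CTR reads (−log10 q 8.19) and 39 p63 reads (−log10 q 33.9), a ratio of 3.0 (1.57 to 6.13). The region at −19.5 kb (chr17:34235489-34235956) had no CTR peak, whereas the p63 list gave 25 reads, a 6.28-fold enrichment and a −log10 q of 12.6. Over all regions, 12% of those at the threshold in the p63 list had no CTR peak. Its summit sequence held a pair of NF-κB matches. The region at −6.6 kb moved the other way, with 41 CTR and 25 p63 reads, a ratio of 0.61 (0.355 to 1.03). The 5 shared regions, the promoter among them, had ratios of 0.891 to 1.26. The shared region at 44.9 kb downstream (23 and 29 reads) lay 14405 bp from the TSS of CCL11, which encodes an eosinophil chemokine.

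LIF, on chromosome 22, had 17 regions, of which 9 were shared, 1 was CTR-only, 3 were p63-only and 4 were weak. The largest ratio of the whole set lay at −30.9 kb (chr22:30277464-30277910), where 10 CTR reads (−log10 q 4.61) stood against 42 p63 reads (−log10 q 32.0), a ratio of 4.20 (2.07 to 9.39). This sequence is repeated in the genome. The 24-base words around its summit had a median of 192 copies in hg38, and 10.3% of them occurred once, whereas every word around the CCL2 summit at −36.3 kb occurred once. How reads with several matches were treated is not given in the sources used here, and the part of repeats in the value was not tested. Without it, the set had 4 p63-only regions and 2 regions called higher. The region is also nearer to CASTOR1, an arginine sensor of mTORC1 signalling, at 9759 bp.

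At 28.9 kb downstream of the LIF start (chr22:30217721-30218165) a p63 peak of 31 reads, enriched 9.45-fold at a −log10 q of 21.7, had no CTR counterpart. The shared region at 22.4 kb downstream had 53 CTR and 81 p63 reads, a ratio of 1.53 (1.07 to 2.20). The third p63-only region, at −41.4 kb, lay in an intron of CASTOR1, 169 bp from a TSS of that gene, and had 30 and 43 reads. The CTR-only region at 17.9 kb downstream had 30 and 26. The other shared regions included the lowest ratio of the locus, 0.833 at 40.9 kb downstream, with 84 and 70 reads. The LIF promoter itself had 21 and 18 reads.

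IL6, on chromosome 7, had 3 shared regions and 1 weak region and no list-only region. Its ratios ran from 0.86 in a STEAP1B intron 7.5 kb upstream (57 and 49 reads) to 1.26 at the promoter, and the region in a coding exon of IL6 had 41 and 50 reads. CXCL12, on chromosome 10, also had no list-only region, with 3 shared and 3 weak regions. With 3 regions at the threshold in each list, a share of 0 had a Wilson interval of 0 to 56.1% at either gene. The CXCL12 ratios ran from 0.846 at the region nearest the outermost TSS to 1.46 at the intronic region that covers the RefSeq start (interval 0.843 to 2.56). None of the ratio intervals at these 2 genes excluded 1.

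**Figure D4:**
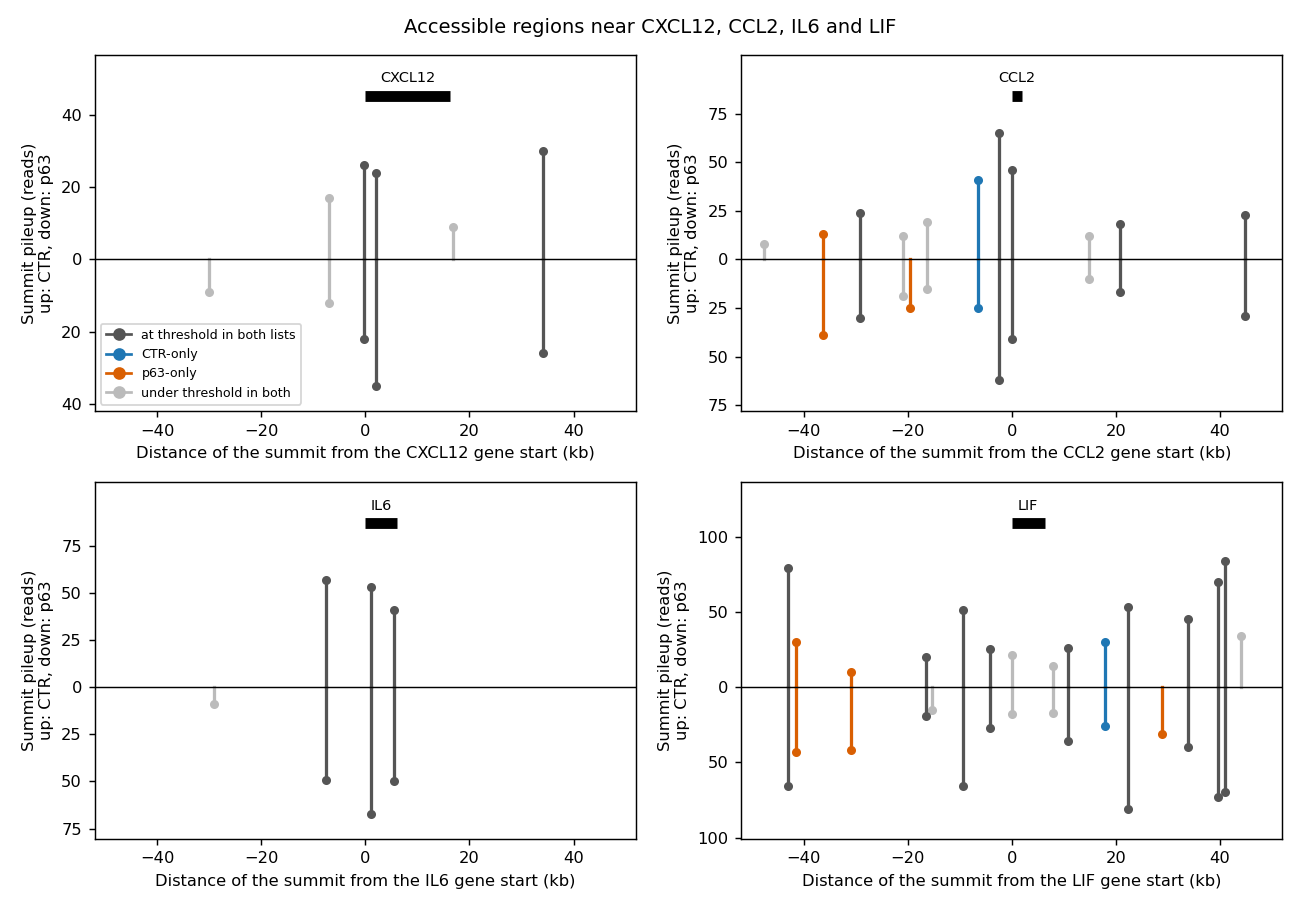
Maps of the regions near CXCL12, CCL2, IL6 and LIF by distance in kb from the outermost annotated start of each gene, drawn in the direction of transcription, with summit pileup in reads upward for the CTR list and downward for the p63 list. The p63-only regions (orange) lie near CCL2 and LIF, away from the starts of these genes. Their shares are near those of the whole chromosomes, and IL6 and CXCL12, with 3 regions at the threshold each, have none.

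Summit sequences are shown from hg38, plus strand, with 50 bases on either side, for the 4 regions absent from the other list and for the CCL2 region with the highest ratio among those of unique sequence. The LIF region at −30.9 kb is left out because its sequence is repeated. The first comes from the CCL2 region at −36.3 kb and is in lower case because none of the 5 patterns searched occurred in these bases. The next is the CCL2 region absent from the CTR list, with both NF-κB matches in capitals, and the third is the LIF region absent from the CTR list, with the AP-1 match in capitals. The last ones are the regions of the CXCL cluster absent from the p63 list, which held no match in these bases.
CCL2 −36.3 kb (chr17:34218933-34219033): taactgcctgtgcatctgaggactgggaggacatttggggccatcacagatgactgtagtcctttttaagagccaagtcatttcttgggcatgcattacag
CCL2 −19.5 kb (chr17:34235729-34235829): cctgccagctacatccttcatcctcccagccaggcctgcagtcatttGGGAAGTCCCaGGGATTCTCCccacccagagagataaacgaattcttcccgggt
LIF 28.9 kb downstream (chr22:30217770-30217870): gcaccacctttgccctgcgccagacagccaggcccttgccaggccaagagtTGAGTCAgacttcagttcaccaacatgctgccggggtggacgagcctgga
CXCL1 22.8 kb downstream (chr4:73892164-73892264): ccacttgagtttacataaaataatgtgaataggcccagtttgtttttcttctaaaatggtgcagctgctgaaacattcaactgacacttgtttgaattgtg
CXCL5 19.6 kb downstream (chr4:73979033-73979133): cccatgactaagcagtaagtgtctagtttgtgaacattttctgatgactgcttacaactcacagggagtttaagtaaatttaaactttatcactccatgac

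The p63 response element is a 20-base pair of decamers, and few regions of the set, as of the series, held one. A match was counted when both core C and G letters were present and no more than 3 other letters differed. Within 100 bp of the summit, 1 of the 45 regions held one (2.22%, 0.393 to 11.6%). The share over all regions at the threshold, 3.32%, lies within this interval. That match has 3 mismatches, lies 68 bp before the summit of the shared region 44.9 kb downstream of CCL2 (chr17:34300069-34300088), and is printed in capitals because it is the site itself. Another match with 3 mismatches lay at a weak p63 region 30 kb upstream of CXCL12 (chr10:44416416-44416435), with 9 reads and no CTR peak. None of the 5 p63-only regions held a match (Wilson interval 0 to 43.4%), whereas 11.4% of all p63-only regions of the series did. The absence of these letters from the window says nothing on binding.
CCL2 44.9 kb downstream: AGGCATGTGGGTGCATGCTC
CXCL12 −30 kb: GCACATGTCCGTGCTTGCCA

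The other motifs, searched on both strands with no mismatch, differed in frequency. The AP-1 motif TGAGTCA occurred in 17 of the 45 regions (37.8%, 25.1 to 52.4%), beside 25.7% of all regions, and in 10 of the 18 cluster regions. The C/EBP motif TTGCNNAA occurred in 7 regions (15.6%, beside 9.42%), of which 6 lay in the cluster. The NF-κB motif occurred in 4 (8.89%, beside 3.45%), namely the CXCL2 and CXCL3 promoters, the CCL2 region at −19.5 kb and a shared LIF region at −4.1 kb. The KLF motif GGGNGNGGC, which KLF4 and related factors can read, occurred in 4 (8.89%, beside 12.8%). AP-1 occurred in 4 of the 9 CTR-only regions (18.9 to 73.3%) and 1 of the 5 p63-only regions (3.62 to 62.4%), beside 26.1% and 22.0% of all such regions, which lie within these intervals. A motif match describes the letters and not a bound site.

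The 53 other genes of these pathways were listed as ligands, receptors and signalling factors. Of them, 22 had at least 1 CTR-only region within 50 kb (41.5%, beside 41.9% of all protein-coding genes) and 38 at least 1 p63-only region (71.7%, beside 58.2%). They had a median of 6 regions at the threshold near them, beside 5 for all protein-coding genes, and the 19 signalling genes had 8. Among the 10 genes of the set, 6 had a CTR-only and 2 a p63-only region, with a median of 4 regions per gene. The p63-only regions lay near 10 of 20 ligands, 11 of 14 receptors and 17 of 19 signalling genes, and CTR-only regions near 9, 4 and 9. Some of these are regions of the set counted again near neighbouring ligands. This holds for the CTR-only regions of PF4, PPBP, CCL7, CCL11 and OSM and for the p63-only region of CCL7 and CCL11.

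By count, the most p63-only regions, 4 each, were counted near CCR2, the receptor of CCL2, SOCS3, a feedback inhibitor of STAT3 signalling, OSM, a cytokine related to LIF, and TNFRSF1A, a receptor of TNF. Of the 4 near OSM, 3 were the LIF regions described above, since the genes are neighbours. The most CTR-only regions were counted near PF4V1, with 4, all of them regions of the CXCL cluster, and IRF1, an interferon-responsive factor, with 3. STAT3, TLR3, a sensor of double-stranded RNA, CEBPB, a C/EBP factor, and CSF2, a growth factor of myeloid cells, had 2 each, and the summed −log10 q was higher at STAT3 and TLR3 than at CEBPB and CSF2. IRF1 also had 3 p63-only regions.

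Facts of the whole series that bear on these values are few. The lists give no read totals, and the genome-wide background solved from the peaks was 1.18 reads for CTR and 1.13 for p63. Among markers, 14 of 16 fibroblast genes had an open promoter in both lists, with COL3A1 and PDGFRA not open, against 5 of 16 keratinocyte genes for CTR and 6 for p63, KRT17 being the addition. Of 8 leukocyte genes 4 and 3 were open and of 6 endothelial genes 0 and 0. Whether cells of other kinds or states had a part in the differences was not tested. Peaks with a summit in a coding exon of TP63, where reads from a construct without introns map, numbered 0 for CTR and 2 for p63.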

How the data were processed

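The 4 ATAC-seq samples of BJ fibroblasts (2 CTR, 2 p63) were grouped by their labels. Per the labels and the study's methods, the authors mapped reads to hg38 with Bowtie2 2.3.4.3 and called peaks with MACS2 from both samples of a group. The version and options of MACS2, removal of duplicate reads, shift of cut sites and treatment of reads with several matches are not given in the sources used here. The deposited lists hold for each peak a score, a fold enrichment of the summit over the local background, a −log10 p and a −log10 q, and the summit offset. They are not scaled between lists.

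Peaks on chromosomes 1 to 22, X and Y were used (101142 CTR, 109486 p63). Overlapping peaks of both lists (at least 1 bp) formed 1 region. Pileup and background were solved from the −log10 p and the fold enrichment, taken as (pileup + 1)/(background + 1). A whole pileup was found for 99.993% of peaks in both lists (tolerance 0.001 in −log10 p). Ratios of p63 to CTR pileup were divided by the median over shared regions. Motifs were searched as given in the text. Copies of 24-base words were counted on hg38. The calculations were tested on simulated data. Python 3.11.15, scipy 1.17.1, pysam 0.24.0 and Biopython 1.88 were used. Since each group has 1 list, no test and no p-value was computed, and nearby regions are not independent.

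All 10 genes were named, with their promoters, regions absent from a list, regions with a p63 site, the highest and lowest ratio per locus, and the 4 pathway genes with most list-only regions of each kind, ties broken by the summed −log10 q. The other CTR-only and p63-only regions, the regions of repeated sequence, the neighbouring genes, CEBPB and CSF2 were named after their values were seen. The genes, lists and motifs were chosen with earlier results of these data known. Alternatives were another threshold, overlap, window, TSS set, ranking, scaling, fold and motif window.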

Additional observations from a re-analysis of the deposited data

How the results depend on the processing

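No paired analysis was possible because each group has 1 deposited list with no value per replicate, and for the same reason no replicate could be left out. Of 82 alternative values, 61 moved by no more than 1.5-fold or stayed within their interval, and 21 moved further. At a −log10 q of 20, the set had 1 CTR-only region (5.88%) and 9 p63-only regions (36.0%), beside 15.4% and 24.6% over all regions. The CXCL cluster had 1 of each, and 11 of the 53 pathway genes had a CTR-only region. The share of all protein-coding genes at that threshold is not given here. At 15, a threshold chosen after seeing the data, the set had 3 CTR-only regions and the cluster 2 CTR-only and 1 p63-only. Over all regions the shares at 15 were 15.3% CTR-only and 24.3% p63-only. With all deposited peaks, the CTR-only share of the set was 12.1% and the p63-only count 8, and the cluster had 4 CTR-only and 3 p63-only regions. With an overlap of 50% of both peaks, 9 regions were p63-only. Within 25 kb, 1 of 21 regions was p63-only (4.76%), and within 100 kb the cluster had 1 of 14 (7.14%), beside 24% over all regions. Scaling by background gave 4 regions called higher and 1 lower, where the balance at the median scaling was 3 and 4, and a fold of 2 left 0 lower. Over whole peaks, 33.3% of regions held a C/EBP match, beside 23.6% of all regions, since the window searched was longer. For the other changes the cause was not tested. Leaving out regions of repeated sequence, also chosen after seeing the data, changed no count by more than 1.5-fold. Pileups near 15 limit what can be told apart: a region of 17 and 12 reads has an interval of 0.308 to 1.57.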
